A study of Arabidopsis thaliana with 12 samples.

Results

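Jasmonates are lipid hormones that plants make from linolenic acid released from plastid membranes. A 13-lipoxygenase oxygenates the fatty acid, allene oxide synthase acts on the product, further steps follow in the plastid, and β-oxidation in the peroxisome shortens the chain. The isoleucine conjugate of jasmonic acid brings the receptor COI1 and the JAZ repressors together, the repressors are degraded, and transcription factors such as MYC2, MYC3 and MYC4 act. A MYC branch with *VSP1* among its targets and an ERF branch with the defensin gene *PDF1.2* among its targets are commonly told apart, and the hormone is best known in leaves for wound and defence responses.

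The 5 genes described here are *LOX2* (*At3g45140*, a plastid 13-lipoxygenase) and *AOS* (*At5g42650*, allene oxide synthase) of jasmonate synthesis, and *VSP1* (*At5g24780*, a vegetative storage protein), *PDF1.2* (*At5g44420*, a plant defensin) and *THI2.1* (*At1g72260*, a thionin), which are classical response genes. They were chosen by name, and 5 of 5 had 1 probe set each, among 14580 genes with a named probe set and 22746 probe sets tested. The platform annotation names *PDF1.2* and *THI2.1*. *LOX2*, *AOS* and *VSP1* are named only by a supplementary table of the study, whose readable part is sorted by the adjusted p of *bri1-5* against Ws-2, so a change in *bri1-5* was a condition for naming these 3 genes. Their values in *bri1-5* against Ws-2 are given as a description with no p. The other comparisons that use the *bri1-5* or the Ws-2 arrays, the interaction included, share those arrays with the table's order. The probe set of *VSP1* has the suffix that Affymetrix gives to probes shared by similar transcripts, and *VSP2* lies next to *VSP1* in the TAIR10.1 annotation, so the signal is that of *VSP1* or of both genes.

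RNA of whole Arabidopsis seedlings was measured on 12 Affymetrix ATH1 arrays, 3 labelled as biological replicates for each of 4 genotypes in the Ws-2 background. The genotypes were the *phyB-77 bri1-5* double mutant, the *phyB-77* single mutant (the allele that the labels call *gul2-1*, a mutation of the red-light receptor phytochrome B), *bri1-5* (a mutation of the brassinosteroid receptor BRI1) and Ws-2 wild type. All were 7 days old by the labels and grew in continuous red light with no hormone, wounding or pathogen treatment named. Each mutant genotype is a single allele or a single allele combination, and the sources do not say whether the replicates were grown apart, so that each p-value covers no more than the spread among arrays. Values are log2 signals from robust multi-array averaging (RMA), and a difference of 1 is a doubling. A gene is called higher or lower where the limma test over all probe sets gave a Benjamini-Hochberg adjusted p under 0.01.

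The array medians lay between 5.87 and 5.99, and arrays of a genotype correlated at 0.993 to 0.998. Replicate 1 of *phyB-77* had the highest median, and it stood apart from the other *phyB-77* arrays for *AOS* and *VSP1* below. In samples of whole seedlings, less RNA per cell and a smaller share of the cells that hold it cannot be told apart. Of the leaf markers listed, 3 of 11 could be named (*LHCB4.1*, *LHCB6* and *LHCA3*, light-harvesting proteins), and their summed linear signals were 33142 to 34425 in the double mutant, 20981 to 24949 in *phyB-77*, 33875 to 36085 in *bri1-5* and 34204 to 36523 in Ws-2. The leaf markers were thus low on the 3 *phyB-77* arrays and overlapped or lay close together elsewhere, and 3 of 3 were called lower in *phyB-77* against Ws-2. The 7 named root markers of 11 summed to 9131 to 9960 in the double mutant, 8979 to 10712 in *phyB-77*, 11187 to 11736 in *bri1-5* and 9865 to 10840 in Ws-2. This sum is dominated by *PYK10*, which was not called, while of the 7 root markers 3 were called lower and 0 higher in the double mutant (median log2 fold change -0.08), 6 lower and 0 higher in *phyB-77* (-0.82), and 1 lower and 5 higher in *bri1-5* (0.96), each against Ws-2. The 8 named seed markers of 8 summed to 13242 to 13905 in the double mutant, 15996 to 16630 in *phyB-77*, 1399 to 1522 in *bri1-5* and 1274 to 1396 in Ws-2, so that the sums were high in both genotypes with *phyB-77*. Of the 8 seed markers, 6 were called higher and 1 lower (*SESA1*) in the double mutant, 8 higher in *phyB-77*, and 0 higher and 2 lower in *bri1-5*. The root markers other than *PYK10* were named through tables of the study ordered or selected on comparisons that include *bri1-5* against Ws-2. Most seed markers were named through tables selected on *phyB-77* or the double mutant against Ws-2, so calls there were in part a condition for naming them. *LHCB6* and *LHCA3* were named through the study's table of overlaps between its gene lists. The counts of calls for markers named in these ways are no independent evidence of a direction.

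**Figure D1:**
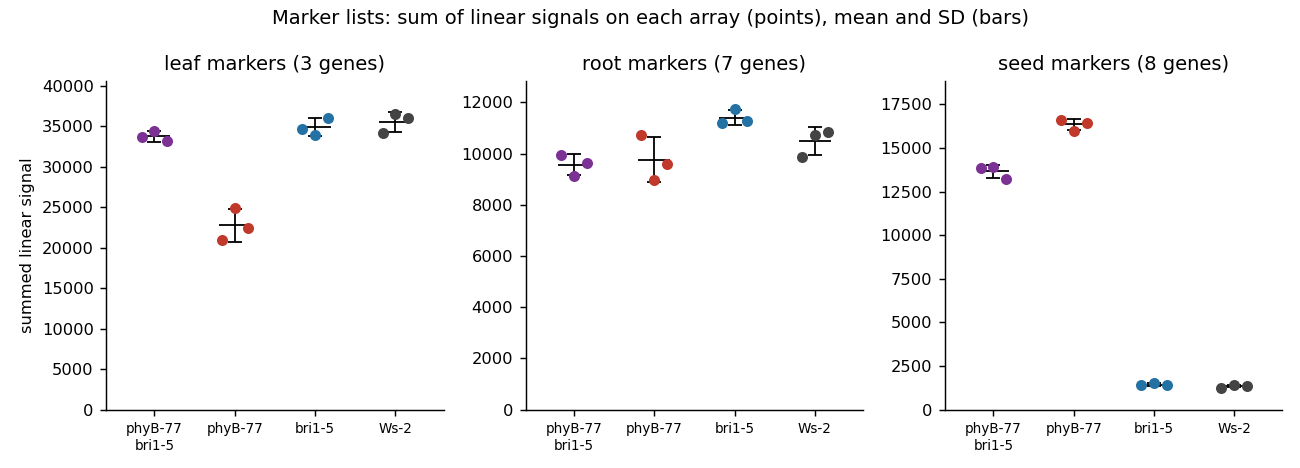
Summed linear RMA signals (vertical axes, starting at 0) of the named leaf, root and seed markers on each array, with the 4 genotypes along the horizontal axis. Points are arrays, and bars are the mean and SD of 3 arrays. The leaf sum is lowest on the *phyB-77* arrays (20981 to 24949), and the seed sum is at least 13242 in the double mutant and *phyB-77* and at most 1522 in *bri1-5* and Ws-2.

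*LOX2*, whose product oxygenates the fatty acid at the start of the route, was lowest in *phyB-77* and highest in *bri1-5*. Its log2 signals were 7.64, 7.62 and 7.51 in the double mutant, 7.30, 7.27 and 7.00 in *phyB-77*, 9.56, 9.75 and 9.51 in *bri1-5*, and 8.82, 8.88 and 8.88 in Ws-2. No array of any genotype overlapped with those of another, and from high to low the order was *bri1-5*, Ws-2, the double mutant and *phyB-77*. The means were 7.59 ± 0.07 in the double mutant, 7.19 ± 0.16 in *phyB-77*, 9.60 ± 0.13 in *bri1-5* and 8.86 ± 0.03 in Ws-2 (SD, n = 3 each). With *phyB-77* added to *bri1-5*, the *LOX2* signal was 4.03-fold lower (double mutant against *bri1-5*, log2 fold change -2.01, limma adjusted p = 2e-11). The same mutation in the wild type gave a 3.19-fold lower signal (*phyB-77* against Ws-2, -1.67, 2.4e-10). The difference between these effects was -0.34 (95% interval -0.63 to -0.05) and was not called (limma adjusted p = 0.09). Thus *LOX2* fell with *phyB-77* in both backgrounds. In the other direction, *bri1-5* was 0.74 above Ws-2 and the double mutant was 0.40 above *phyB-77* (limma adjusted p = 0.005). That last call was lost without replicate 3 of *phyB-77* (0.31, 0.037) and without replicate 1 (0.38, 0.027), 2 (0.39, 0.024) or 3 (0.45, 0.01) of the double mutant. In the double mutant, *LOX2* was 2.41-fold below Ws-2 (-1.27, limma adjusted p = 1.4e-08). The 3 leaf markers were lower in *phyB-77* against Ws-2 and were not called in the double mutant. Most root markers, like *LOX2*, were low in *phyB-77* and high in *bri1-5*, and 5 of 7 were called lower in the double mutant against *bri1-5* (median -0.91). The part of the leaf and root markers in the *LOX2* values was not tested.

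*AOS*, which encodes the enzyme after LOX2, followed another order. Its log2 signals were 7.72, 7.61 and 7.59 in the double mutant, 8.35, 8.02 and 7.92 in *phyB-77*, 7.83, 7.79 and 7.78 in *bri1-5*, and 8.28, 8.37 and 8.38 in Ws-2. Both genotypes with *bri1-5* lay below all Ws-2 arrays, and *phyB-77* lay between them with replicate 1 inside the range of Ws-2. Against Ws-2, *AOS* fell by 0.71 in the double mutant (95% interval -0.92 to -0.49, limma adjusted p = 4.2e-05), and the difference was -0.54 in *bri1-5* (-0.76 to -0.33). Against *phyB-77*, the double mutant was lower (-0.46, 0.0024), and this call was lost without replicate 1 of *phyB-77* (-0.33, 0.014) and without replicate 2 (-0.45, 0.013) or 3 (-0.44, 0.016) of the double mutant. The effect of *phyB-77* was -0.25 in the wild type (-0.46 to -0.03, limma adjusted p = 0.095) and -0.16 in *bri1-5* (-0.38 to 0.05, 0.26). Without replicate 1 of *phyB-77*, the comparison in the wild type gave -0.37 and was called (0.0066), and with array weights it gave -0.33 (0.0089). In order of level, Ws-2, *phyB-77*, *bri1-5* and the double mutant followed each other, and neither *phyB-77* against Ws-2, *phyB-77* against *bri1-5* (0.30, 0.08 to 0.51, 0.029) nor the double mutant against *bri1-5* was called. *LOX2* and *AOS* therefore differed in *bri1-5*, where *LOX2* had the higher mean and *AOS* the lower mean than in Ws-2.

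**Figure D2:**
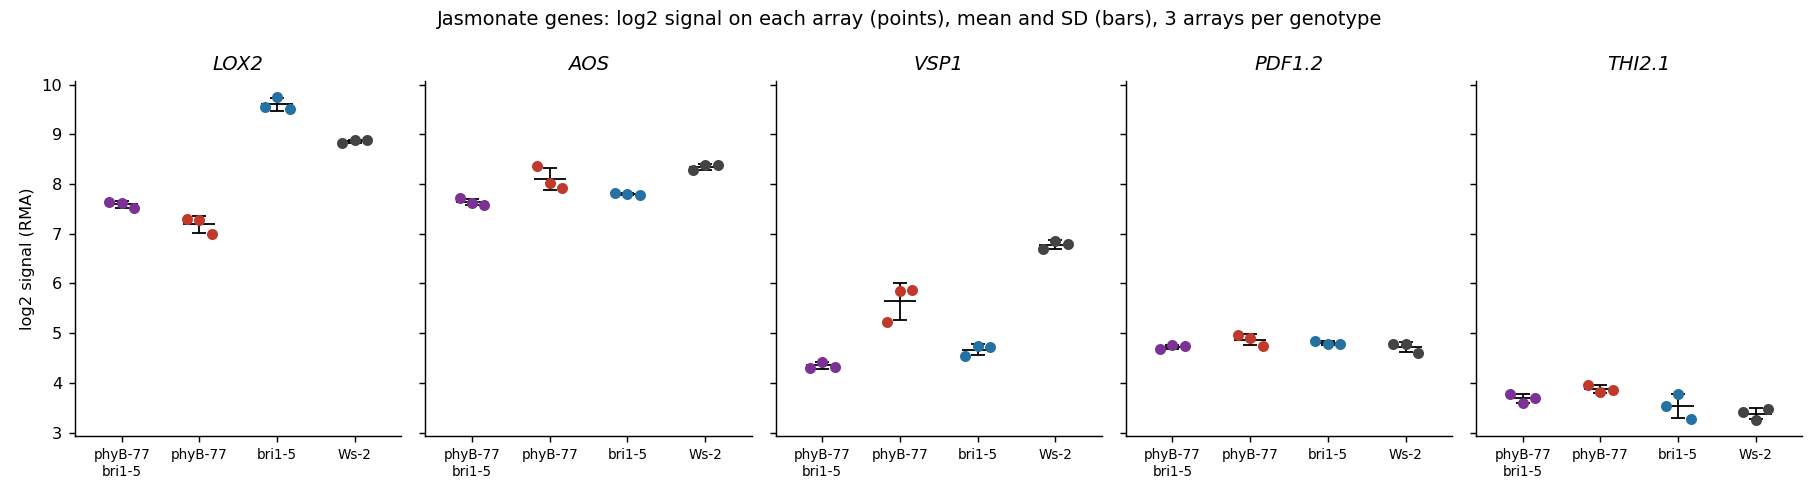
Log2 RMA signal (vertical axis) of *LOX2*, *AOS*, *VSP1*, *PDF1.2* and *THI2.1* on each array of the 4 genotypes (horizontal axis). Points are arrays and bars are the mean and SD of 3 arrays. The 4 genotypes do not overlap for *LOX2*, *VSP1* is 6.68 or more in Ws-2 and 5.87 or less elsewhere, and *PDF1.2* lies between 4.61 and 4.95 on all 12 arrays.

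*VSP1*, a vegetative storage protein gene widely used as a readout of the MYC branch, had its highest level in Ws-2. Its log2 signals were 4.30, 4.43 and 4.32 in the double mutant, 5.22, 5.85 and 5.87 in *phyB-77*, 4.54, 4.74 and 4.73 in *bri1-5*, and 6.68, 6.85 and 6.80 in Ws-2. The genotypes did not overlap, and replicate 1 of *phyB-77* was the lowest of its genotype. Against Ws-2 the signal was 5.38-fold lower in the double mutant (-2.43, 95% interval -2.71 to -2.14), 2.19-fold lower in *phyB-77* (-1.13, -1.42 to -0.85) and 4.32-fold lower in *bri1-5* (-2.11, -2.39 to -1.83). The limma adjusted p was 1e-10 for the double mutant and 3.9e-06 for *phyB-77*. The double mutant was below *phyB-77* by a log2 fold change of -1.29 (1e-06). It was not called against *bri1-5* (-0.32, -0.60 to -0.03, limma adjusted p = 0.089). The single effects of the mutations summed to -3.24, against -2.43 measured in the double mutant. The interaction, that is the change with *phyB-77* measured in *bri1-5* less the change measured in the wild type, was 0.82 (0.42 to 1.22) and was called (limma adjusted p = 0.0041). The call was lost without replicate 2 (0.78, 0.013) or 3 (0.81, 0.012) of Ws-2, replicate 1 of *bri1-5* (0.76, 0.012) or replicate 2 of the double mutant (0.78, 0.013). In the double mutant and in *bri1-5*, the *VSP1* signals lay in or below the range of *PDF1.2*, a dim probe set. How far a further fall could be measured at this level was not tested. Against Ws-2, all 3 leaf markers were lower in *phyB-77* and were not called in *bri1-5*, and *VSP1* was lower in *bri1-5* than in *phyB-77*. Of the root markers, 6 of 7 were lower in *phyB-77*, and 5 were higher and 1 lower in *bri1-5*. The part of the leaf and root markers in the *VSP1* values was not tested.

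*PDF1.2*, the defensin gene that reads out the ERF branch, did not pass the test in any of the 7 comparisons. Its log2 signals were 4.69, 4.76 and 4.73 in the double mutant, 4.95, 4.90 and 4.74 in *phyB-77*, 4.85, 4.79 and 4.78 in *bri1-5*, and 4.78, 4.79 and 4.61 in Ws-2. The ranges overlapped in each comparison with Ws-2. Relative to Ws-2 it differed by 0.00 in the double mutant (95% interval -0.19 to 0.19), 0.14 in *phyB-77* (-0.05 to 0.33, limma adjusted p = 0.31) and 0.08 in *bri1-5* (-0.11 to 0.27, 0.58).

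*THI2.1*, a thionin gene, was a dim probe set with a small difference. Its log2 signals were 3.77, 3.59 and 3.70 in the double mutant, 3.96, 3.81 and 3.85 in *phyB-77*, 3.54, 3.77 and 3.28 in *bri1-5*, and 3.42, 3.26 and 3.47 in Ws-2. The arrays of the double mutant and of *phyB-77* lay above those of Ws-2, while those of *bri1-5* overlapped with them. Of the 3 mutants, *phyB-77* was called against Ws-2 (0.49, 95% interval 0.26 to 0.72, limma adjusted p = 0.003). The call was lost without replicate 1 (0.45, 0.015) or 3 (0.50, 0.01) of *phyB-77* or replicate 2 of Ws-2 (0.43, 0.022). It was also lost where a fold change above 1.5 was asked for. Against *bri1-5*, *phyB-77* was 0.34 higher (0.11 to 0.58, 0.021), which was called under quantile normalization (0.37, 0.0096) and without replicate 2 of *bri1-5* (0.46, 0.0024). The double mutant differed from Ws-2 by 0.30 (0.07 to 0.54, limma adjusted p = 0.058, called with array weights at 0.0069) and *bri1-5* by 0.15 (-0.09 to 0.38, 0.37). The probe sets of *PDF1.2* and *THI2.1* were among the 40% with the lowest mean signal.

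**Figure D3:**
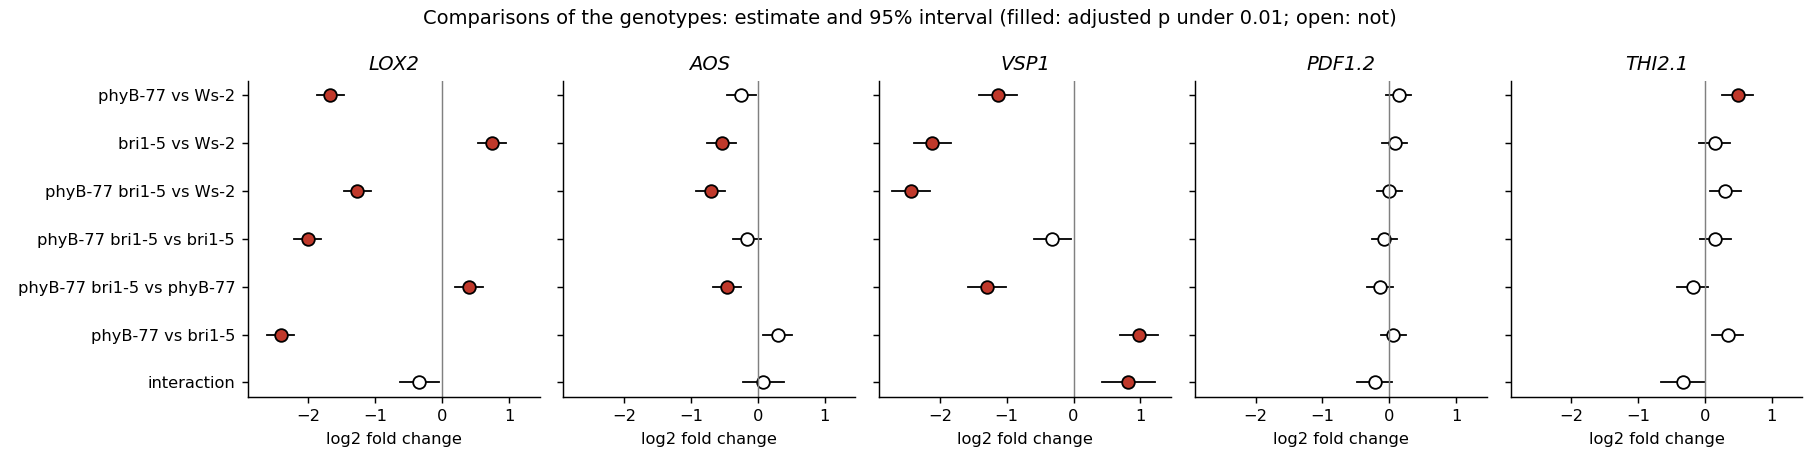
Log2 fold change (horizontal axis, 95% interval as line) of the 5 genes in the 6 comparisons of genotypes and the interaction (rows), from the limma fit of 12 arrays. Filled points had an adjusted p under 0.01. *LOX2* and *VSP1* have points beyond -2, and *PDF1.2* has 7 open points near 0.

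Counted together, 3 of the 5 genes (*LOX2*, *AOS* and *VSP1*, lower) were called in the double mutant against Ws-2, where 14.6% of all probe sets were called. In *phyB-77* against Ws-2, 3 of 5 were called (*LOX2* and *VSP1* lower, *THI2.1* higher) beside 15.3% of all probe sets. In *bri1-5* against Ws-2, 3 of 5 were called beside 19.1%, and these are the 3 genes named through the table sorted on that comparison. The double mutant against *bri1-5* had 1 of 5 called (*LOX2*, lower) beside 19.4%, and against *phyB-77* it had 3 of 5 (*LOX2* higher, *AOS* and *VSP1* lower) beside 16.0%. *phyB-77* against *bri1-5* had 2 of 5 called (*LOX2* lower by 2.42, adjusted p = 8.4e-13, and *VSP1* higher by 0.98, 1.2e-05, both limma) beside 26.7%, and the interaction had 1 of 5 (*VSP1*) beside 13.8%. The comparisons with Ws-2 share its 3 arrays. Of the 2 genes named by the annotation, 0 were called in the double mutant, 1 in *phyB-77* and 0 in *bri1-5* against Ws-2.

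A further 71 genes were listed by role in the pathway or as defence proteins. Of these, 25 had a named probe set, 15 through the annotation and 10 through the study's tables. They are called other jasmonate genes here. Among them, *PDF1.1*, *PDF1.4* and *THI2.2* were listed as defensin or thionin genes and not as jasmonate response genes. None of the 12 listed JAZ repressor genes could be named. Against Ws-2, 4 of the 25 were higher and 6 lower in the double mutant (6.55% and 8.01% of all probe sets), 10 higher and 3 lower in *phyB-77* (8.56% and 6.77%), and 1 higher and 9 lower in *bri1-5* (10.5% and 8.61%). Over the 15 genes named by the annotation, the counts were 2 higher and 2 lower in the double mutant, 5 and 2 in *phyB-77*, and 1 and 4 in *bri1-5*. *PDF1.1*, *PDF1.4* and *THI2.2*, all named by the annotation, were among those higher in *phyB-77*. *PDF1.1* was also among those higher in the double mutant and lower in *bri1-5*, and *THI2.2* was the 1 gene higher in *bri1-5*. The median log2 fold changes over the 25 genes were -0.06 in the double mutant, 0.20 in *phyB-77* and -0.15 in *bri1-5*, beside -0.02, 0.01 and 0.01 over all probe sets. The 10 genes named through the tables could be named because those tables are ordered or selected on these arrays, so their counts are no independent evidence of a direction, and their values in a comparison that ordered or selected the table are given below with no p.

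Of 6 named synthesis genes, 1 was higher and 1 lower in the double mutant, 3 higher and 0 lower in *phyB-77*, and 0 higher and 1 lower in *bri1-5* against Ws-2. The 3 that were higher in *phyB-77* were the genes of peroxisomal β-oxidation, which also serve the breakdown of seed oil. *MFP2*, a multifunctional protein, had log2 signals of 9.66, 9.67 and 9.56 in the double mutant, 10.45, 10.39 and 10.48 in *phyB-77*, 9.44, 9.32 and 9.11 in *bri1-5*, and 9.06, 9.12 and 9.09 in Ws-2. The *phyB-77* arrays were highest, and *MFP2* was higher against Ws-2 by 0.54 in the double mutant (limma adjusted p = 0.00024) and by 1.35 in *phyB-77*. The thiolase gene *KAT2* had 0.28 in the double mutant and was higher by 0.87 in *phyB-77*, and *AIM1*, another multifunctional protein, was higher by 0.37 in *phyB-77* (0.0024). The call of *AIM1* was lost without replicate 2 (0.35, 0.015) or 3 (0.37, 0.01) of Ws-2. Of these 3 β-oxidation genes, *MFP2* was called higher in the double mutant against Ws-2, and *KAT2* and *AIM1* were not called there. The seed marker sums were high in both *phyB-77* and the double mutant, and their part in these values was not tested. *DALL3*, a lipase gene, was lower in the double mutant (-0.60, limma adjusted p = 6.4e-05) and had -0.76 in *bri1-5*, against 0.05 in *phyB-77*. *LOX1*, a 9-lipoxygenase gene outside the jasmonate route, had 0.20 in the double mutant (0.29), and stood 1.28 above Ws-2 in *phyB-77* and 0.75 above it in *bri1-5*, beside -1.27, -1.67 and 0.74 for *LOX2* in the same order, with no test between the genes.

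Of 8 named genes of conjugation and turnover, 1 was higher and 3 lower in the double mutant, 1 higher and 1 lower in *phyB-77*, and 0 higher and 4 lower in *bri1-5* against Ws-2. *CYP94B1*, an oxidase of the isoleucine conjugate, had log2 signals of 4.47, 4.46 and 4.70 in the double mutant, 5.14, 5.04 and 5.32 in *phyB-77*, 4.42, 4.63 and 4.48 in *bri1-5*, and 5.64, 5.76 and 5.58 in Ws-2. It was below Ws-2 on all arrays of the 3 mutants, with differences of -1.12 in the double mutant (limma adjusted p = 1.5e-07), -0.50 in *phyB-77* (0.0014) and -1.15 in *bri1-5*. The order of its levels was Ws-2, *phyB-77* and then the genotypes with *bri1-5*, as for *AOS* and *VSP1*. The call in *phyB-77* was lost without replicate 2 of *phyB-77* (-0.43, 0.011) or of Ws-2 (-0.44, 0.012). *JOX3*, a jasmonic acid hydroxylase gene, had -0.67 in both the double mutant (0.00078) and *bri1-5* (0.00064), and *JOX2* had -0.05 in the double mutant and -0.62 in *bri1-5* (0.002). The call of *JOX2* was lost without replicate 2 (-0.59, 0.012) or 3 (-0.53, 0.016) of Ws-2 or replicate 3 of *bri1-5* (-0.49, 0.013). *ILL6*, an amidohydrolase that cleaves the conjugate, had -0.45 in the double mutant (0.001) and -0.58 in *bri1-5*. *ST2A*, a sulfotransferase of hydroxyjasmonate, went the other way, with log2 signals of 7.75, 7.66 and 7.74 in the double mutant, 7.85, 7.52 and 7.68 in *phyB-77*, 6.61, 6.38 and 6.30 in *bri1-5*, and 6.46, 6.56 and 6.43 in Ws-2. Against Ws-2 it was 2.35-fold higher in the double mutant and 2.30-fold higher in *phyB-77*, and the double mutant differed from *phyB-77* by 0.03 (95% interval -0.18 to 0.25).

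**Figure D4:**
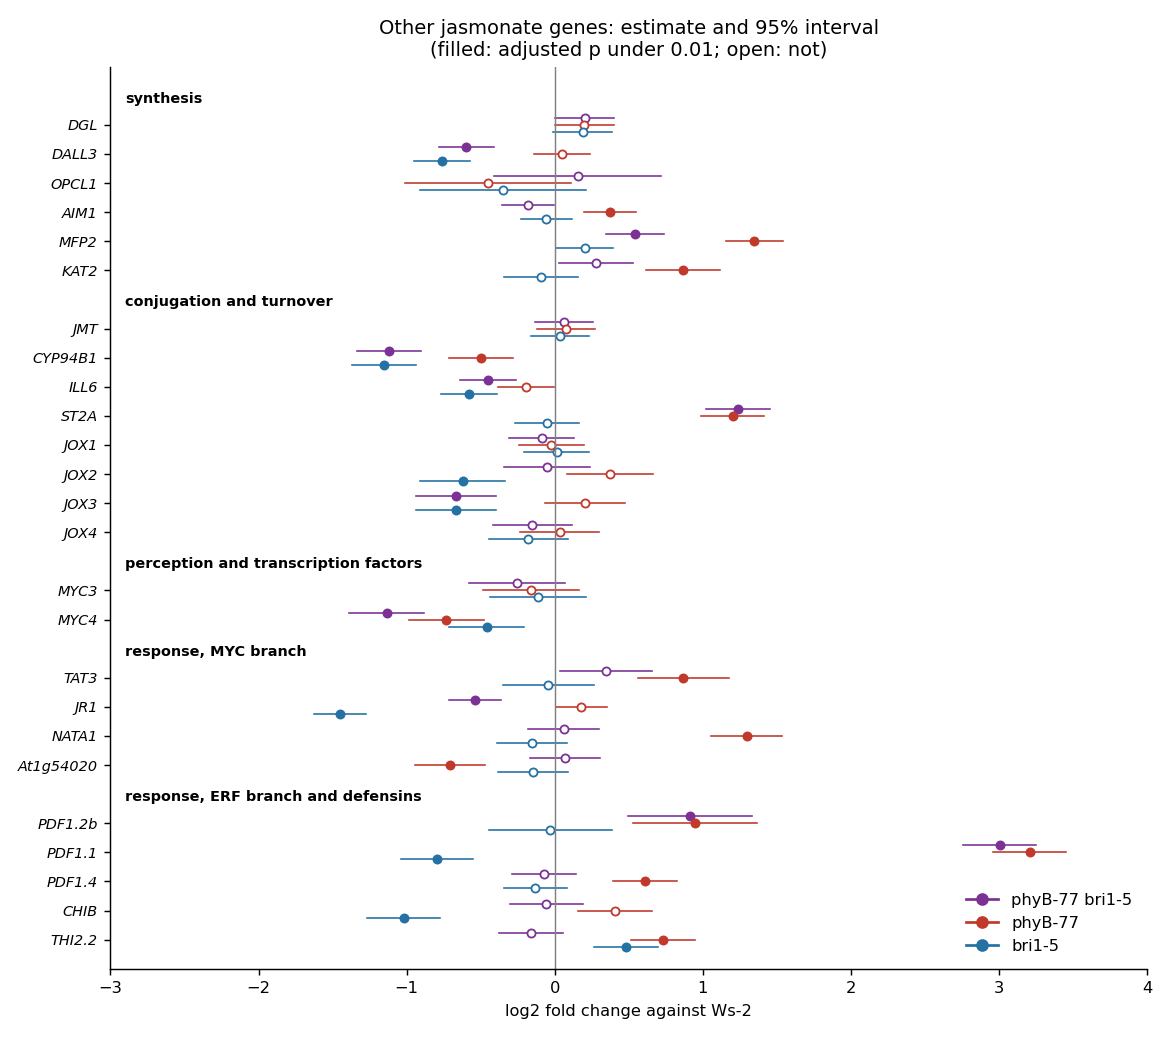
Log2 fold change against Ws-2 (horizontal axis, 95% interval as line) of the 25 other named jasmonate genes, grouped by role, in the 3 mutants (colors). They take in *PDF1.1*, *PDF1.4* and *THI2.2*, which were listed as defensin or thionin genes. Filled points had a limma adjusted p under 0.01. *PDF1.1* stands near 3 in both genotypes with *phyB-77*, and *JR1* has the lowest point, -1.45 in *bri1-5*.

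Among the 10 genes listed for perception and transcription, *MYC3* and *MYC4* could be named. *MYC4* had log2 signals of 5.60, 5.47 and 5.85 in the double mutant, 5.88, 6.20 and 6.05 in *phyB-77*, 6.40, 6.11 and 6.44 in *bri1-5*, and 6.66, 6.94 and 6.74 in Ws-2. All mutant arrays lay below those of Ws-2, with differences of -1.14 in the double mutant (limma adjusted p = 1e-06), -0.73 in *phyB-77* (0.00016) and -0.46 in *bri1-5* (0.0074). The call in *bri1-5* was lost with array weights (0.012), in a fit of the 6 arrays compared (0.013) and without any of 6 single arrays, with -0.50 (0.012) and -0.36 (0.042) without replicate 1 or 2 of *bri1-5*, -0.38 (0.049) and -0.48 (0.019) without replicate 2 or 3 of Ws-2, and -0.46 (0.011) without replicate 3 of *phyB-77* or replicate 1 of the double mutant. *MYC3* was not called, with -0.25 in the double mutant (0.28), -0.16 in *phyB-77* (0.53) and -0.12 in *bri1-5* (0.65).

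Another 4 genes of the MYC branch could be named beside *VSP1*, and none was compared with it by a test. *JR1*, a jacalin-like lectin gene, had log2 signals of 11.00, 11.06 and 10.98 in the double mutant, 11.69, 11.74 and 11.76 in *phyB-77*, 10.04, 10.07 and 10.20 in *bri1-5*, and 11.56, 11.53 and 11.57 in Ws-2. The groups did not overlap, and the difference from Ws-2 was -0.54 in the double mutant (limma adjusted p = 8.2e-05), 0.18 in *phyB-77* (0.14) and -1.45 in *bri1-5*. *NATA1*, an acetyltransferase of ornithine, was 2.45-fold higher in *phyB-77* than in Ws-2. It had 0.06 in the double mutant and -0.15 in *bri1-5*, neither of them called. *TAT3*, a tyrosine aminotransferase, was higher by 0.87 in *phyB-77*, with 0.35 in the double mutant and -0.04 in *bri1-5*. The GDSL lipase gene *At1g54020* differed in *phyB-77* by -0.71 (0.0001), against 0.07 in the double mutant and -0.15 in *bri1-5*. The probe sets of *NATA1*, *TAT3* and *At1g54020* were among the 40% with the lowest mean signal.

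Among genes of defense proteins, of 5 named genes beside *PDF1.2* and *THI2.1*, 2 were higher and 0 lower in the double mutant, 4 higher and 0 lower in *phyB-77*, and 1 higher and 2 lower in *bri1-5* against Ws-2. *PDF1.2b* had log2 signals of 5.32, 5.46 and 5.40 in the double mutant, 4.96, 5.73 and 5.60 in *phyB-77*, 4.23, 4.08 and 5.04 in *bri1-5*, and 4.44, 4.56 and 4.44 in Ws-2. The arrays of both *phyB-77* genotypes lay above those of Ws-2, by 0.91 in the double mutant (limma adjusted p = 0.0022) and 0.95 in *phyB-77* (0.0016), while *PDF1.2* gave 0.00 and 0.14 in the same comparisons. These calls were lost without replicate 2 (0.80, 0.012) or 3 (0.86, 0.012) of *phyB-77*, and for the double mutant without its replicate 2 (0.88, 0.012) or 3 (0.91, 0.01) or replicate 1 or 3 of Ws-2 (both 0.89, 0.011). The probe set of *PDF1.2b* has a suffix for probes that may also bind other transcripts, and which defensin transcripts it measured was not tested. *PDF1.1*, a defensin known from seeds, averaged 10.64 ± 0.07 in the double mutant, 10.85 ± 0.15 in *phyB-77*, 6.85 ± 0.26 in *bri1-5* and 7.64 ± 0.06 in Ws-2 (SD, n = 3 each), in the genotypes in which the seed markers were high. *PDF1.4* was higher by 0.61 in *phyB-77* (0.00022) and had -0.08 in the double mutant. *CHIB*, a basic chitinase gene, had -0.06 in the double mutant, 0.41 in *phyB-77* (0.016) and -1.02 in *bri1-5*. The thionin gene *THI2.2* was higher by 0.73 in *phyB-77* (2.7e-05) and by 0.48 in *bri1-5* (0.0014, and 0.011 without replicate 1 of Ws-2) and had -0.16 in the double mutant (0.31), beside 0.30 for *THI2.1* in the double mutant, with no test between the genes.

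The named genes whose signals followed each of the 5 genes most closely over the 12 arrays are given as a description. These arrays fall into 4 genotypes of 3, so the correlations reflect few independent points. For *LOX2* they were *At5g12050* (Pearson r = 0.988), *IQD24* (0.987, a calmodulin-binding IQD protein) and *CIPK20* (0.978, a protein kinase). For *AOS* they were *LAC7* (0.971, a laccase), *RPI2* (0.967, a ribose 5-phosphate isomerase) and *At4g24780* (0.961). For *VSP1* they were *SWEET17* (0.984, a vacuolar fructose transporter), and the cell wall genes *EXPA1* (0.972) and *XTH7* (0.971). For *THI2.1* they were *MYB65* (0.964), *At1g22700* (0.947) and *KCS16* (0.922), and for *PDF1.2*, which hardly varied, *At3g44280* (0.926), *At2g37890* (0.898) and *At2g06110* (0.865). Among the 5 genes themselves, *AOS* and *VSP1* had the highest r over the 12 arrays (0.87), which reflects the genotype means, since r of their deviations within genotypes was -0.84. Replicate 1 of *phyB-77* was the highest of its genotype for *AOS* and the lowest for *VSP1*, and r within genotypes was not computed without it. *LOX2* had r = 0.09 with *AOS* (0.60 within genotypes) and 0.07 with *VSP1* (-0.31 within genotypes).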

How the data were processed

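Total RNA of whole seedlings was hybridized to Affymetrix ATH1 arrays. Per the labels, the deposited values are log2 signals, made with RMA according to the submitters' processing notes. The software, its settings and the genome build are not given in the sources used here, and the values were used without further normalization. Of 22810 probe sets, 64 controls were left out. A single gene came from the platform annotation for 13513 probe sets and from the study's tables for 1295 more, and the annotation was kept for 18 conflicts. Columns of the authors' own comparisons in those tables were not used, except the adjusted p columns of the sorted table, which were read to find its order. Limma 3.58.1 (R 4.3.3) was run on all 12 arrays, 1 coefficient for each genotype, with 8 residual degrees of freedom and 9.85 from the prior, and 7 two-sided comparisons, each adjusted over 22746 probe sets. The fit was tested on simulated data. The precision is limited by the number of arrays, with a median standard error of 0.10. Where a gene had several probe sets, the brightest on average was taken. Named are the 5 genes, listed jasmonate genes called against Ws-2 (short lists in full), and for each of the 5 genes the 3 named genes with the highest r. Genes and lists were chosen with earlier results of these data known. Alternatives were median centring, quantile normalization, other thresholds, a filter on dim probe sets, control probe sets kept, a variance trend, array weights, a replicate block, fits of the arrays compared and each array left out. Outlying arrays were not tested, as groups hold 3. Tables were made with pandas 2.3.3 and figures with matplotlib 3.10.9.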

Additional observations from a re-analysis of the deposited data

Results flagged for a closer look

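The effect of *phyB-77* differed between the *bri1-5* and the Ws-2 background, by the limma test of the interaction (adjusted p under 0.01), for 1 of the 5 genes, 7 of the 25 other jasmonate genes and *LOX1*, where 13.8% of all probe sets were called. Those 7 include *PDF1.4* and *THI2.2*, which were listed as defensin and thionin genes. The values are the log2 effect in *bri1-5* minus that in Ws-2. Of these genes, *VSP1*, *JR1*, *LOX1*, *MFP2* and *NATA1* were named through tables ordered or selected on at least 1 of the comparisons that enter the interaction, so their tests are not independent of that choice. For *VSP1* it was 0.82 (adjusted p = 0.0041), with an effect of -0.32 in *bri1-5* and -1.13 in Ws-2. The *VSP1* signals were dim in *bri1-5* and the double mutant, and the part of this low level in the interaction was not tested. *JR1* had 0.73 (0.00017) and *At1g54020* 0.92 (0.00033). It was below 0 for *MFP2* (-1.01, 2.2e-05), *NATA1* (-1.08, 8.7e-05), *LOX1* (-1.84, 6.4e-07), *AIM1* (-0.49, 0.0045), *THI2.2* (-1.38, 2.4e-06) and *PDF1.4* (-0.55, 0.0097). For *THI2.2* the effect of *phyB-77* was -0.64 in *bri1-5* and 0.73 in Ws-2, both called, and for *LOX1* it was -0.55 in *bri1-5* (0.0019) and 1.28 in Ws-2. The call of *PDF1.4* was lost under median centring (-0.45, 0.024), quantile normalization (-0.44, 0.032) and a variance trend (0.018), and also without replicate 2 or 3 of Ws-2, 1 or 2 of *bri1-5*, 1 or 3 of *phyB-77* or any replicate of the double mutant (-0.60 to -0.45, adjusted p 0.011 to 0.033). That of *AIM1* was lost under median centring (-0.39, 0.019) and without replicate 2 or 3 of Ws-2, 1 of *bri1-5* or 1 or 3 of the double mutant (-0.49 to -0.46, adjusted p 0.011 to 0.015). The calls of *PDF1.4* and *AIM1* were also lost where a fold change above 1.5 was asked for.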

How the results depend on the processing

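Of 751 recomputed fold changes of the 5 genes, 722 kept their direction and their side of the threshold, 18 lost and 7 gained the call, and 4 changed sign. The sign changes were all of values near 0: *AOS* in the interaction (0.08, and between -0.0046 without replicate 3 and 0.21 without replicate 1 of *phyB-77*) and *PDF1.2* in the double mutant against Ws-2 (0.00, and -0.059 without replicate 3 of Ws-2, -0.016 and -0.0026 without replicate 2 or 3 of the double mutant, and up to 0.032 without replicate 2 of Ws-2). Of 924 recomputed calls of the other listed genes, 874 were kept and 0 changed sign. Calls with a fold change of 1.5 or less are also lost where a fold change above 1.5 is asked for. The lost calls given above for single genes mostly leave this criterion out. The number of the 5 genes called in the interaction was 1, and 0 to 1 when single arrays were left out; in the double mutant against *phyB-77* it was 3, 1 with a fold change above 1.5 and 1 to 3 when single arrays were left out; and in *phyB-77* against *bri1-5* it was 2, and 4 at an adjusted p under 0.05. Of the other jasmonate genes, 13 were called in *phyB-77* against Ws-2, and 7 when the 40% dimmest probe sets were left out, a filter that gives *PDF1.2* and *THI2.1* no value. Of the other jasmonate genes described above, the filter also leaves out *CYP94B1*, *JOX3*, *NATA1*, *TAT3*, *At1g54020*, *PDF1.2b* and *PDF1.4*.

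Over all probe sets, an adjusted p under 0.05 called 5157 probe sets in the double mutant against Ws-2 (3311 at 0.01), 5345 in *phyB-77* (3487), 6625 in the double mutant against *bri1-5* (4414), 5716 against *phyB-77* (3628) and 5140 in the interaction (3128). A fold change above 1.5 left 1710, 1771 and 2158 in the double mutant, *phyB-77* and *bri1-5* against Ws-2 (4352 for *bri1-5* without it), 2168 and 1705 in the double mutant against *bri1-5* and *phyB-77*, and 3133 in *phyB-77* against *bri1-5* (6071). Array weights called 5191 in the double mutant against Ws-2. Under median centring the interaction had 1659 higher and 1474 lower calls, under quantile normalization 1439 and 1610, and in the fit reported 1097 and 2031, and the median over all probe sets moved to 0.05, against -0.05. Median centring gave 1582 higher and 1983 lower calls in *phyB-77* against Ws-2 (1946 and 1541 reported), and 1906 and 1629 in the double mutant against *phyB-77* (1465 and 2163).

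With the replicate number as a block, the counts of the 5 genes called were 3, 3 and 3 against Ws-2, and those of the other listed genes were 10 in the double mutant, 14 in *phyB-77* (13 without the replicate block) and 10 in *bri1-5*. Samples sharing a number did not deviate together (r from -0.19 to 0.08 over 18 pairs, 0 over 0.1, and 1 of 12 arrays matched its own number best), so the numbers gave no sign of pairing. With 3 arrays per genotype, these values cannot tell whether samples with the same number were grown or processed together.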
